A study of Caenorhabditis elegans with 2 samples.

Results

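The aminoacyl-tRNA synthetases of Caenorhabditis elegans were examined as possible targets of DVE-1 in chromatin immunoprecipitation and sequencing (ChIP-seq) data from late embryos. The genes were taken by name, as every protein-coding gene called by a lower-case letter, ars- and a number in Ensembl release 115. This gave 32 of the 19973 protein-coding genes on the nuclear chromosomes. There was 1 group, of 2 biological replicates, so no conditions could be compared. The worms were hermaphrodites of strain OP398, which carries the unc-119(tm4063) allele and the integrated transgene wgIs398 for DVE-1 with GFP and FLAG at the C terminus. The promoter that drives the transgene is not given in the sources used here. Chromatin of whole late embryos was precipitated with an antibody against GFP, so binding in different tissues cannot be told apart, and untagged worms were not analysed here. The authors deposited a peak list for each replicate, a list called on the reads of both together (30000 peaks, which include background) and a list of 1447 reproducible peaks that passed IDR, the irreproducible discovery rate. Each peak has a summit and a signal, the authors' own enrichment value of unstated scale, which was compared within a list alone. Peak lists hold no read totals, so depth is unknown, and they cannot be checked against markers of tissue or stage.

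A synthetase joins an amino acid to the tRNA that reads its codon, and every codon translated in a cell depends on this step. Animals translate in the cytosol and, separately, inside mitochondria, and all mitochondrial synthetases are encoded in the nucleus, made in the cytosol and imported. Most amino acids therefore have a gene for each place, while a few enzymes serve both. DVE-1 belongs to the homeodomain proteins and takes part in the unfolded protein response of mitochondria, in which nuclear genes for mitochondrial upkeep are induced. By their known place, 16 of the genes encode cytosolic enzymes, 12 mitochondrial enzymes and 4 enzymes of both compartments (gars-1, hars-1, kars-1 and tars-1). The number in the name is not a sure guide, since aars-2 is the cytosolic alanyl enzyme and aars-1 the mitochondrial one, vars-1 is mitochondrial, and fars-3 encodes the beta subunit of the cytosolic phenylalanyl enzyme. No synthetase gene lies on the X chromosome.

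A reproducible DVE-1 summit stood at 1 of the 32 synthetase genes (3.12%), against 4.33% of all protein-coding genes. A gene was counted when a summit of the thresholded list lay in its promoter window, which began 1000 bp before the annotated 5′ end of the gene and ended 200 bp after it. The count rests on the choice of library, since the strongest 1447 peaks of replicate 2 alone put a summit at 3 synthetases (9.38%, against 4.16% of all genes) and those of replicate 1 alone at 2 (6.25%, against 4.32%). When each summit went to its nearest gene, the count was 0. Against all genes the share was thus lower in the reproducible list and higher in either replicate alone, on counts of 1 to 3 genes. The gene in the reproducible list was ears-2, which encodes the mitochondrial glutamyl-tRNA synthetase (chromosome IV, 388686 to 390468, minus strand, ce11 build). Its summit, at position 390525 of chromosome IV and 57 bp upstream, had a signal of 118 and rank 605 in the list. That signal lay above the median of all thresholded peaks (109.7, range 78.9 to 917) and above the median over all genes with a thresholded summit (108). In its own list, replicate 1 had a signal of 51.4 there (rank 583 of 11568) and replicate 2 a signal of 63.4 (rank 813 of 15750), with summits 7 bp apart. The peak was thus high in both replicates' lists. The same summit belongs as much to a second gene. It lies in a gap of 91 bp between ears-2 and uncp-18 (chromosome IV, 390560 to 393158, plus strand), a gene for a syntaxin-binding protein that is transcribed in the opposite direction, and it was 35 bp from the 5′ end of uncp-18. Which of the genes the site serves cannot be told apart here.

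The gap is shown because it holds the whole space between the paired genes. It runs from position 390469 to 390559 of chromosome IV and is written 5′ to 3′ towards ears-2, from the RefSeq WBcel235 genome (the ce11 sequence). Capitals mark CGCG or GCGC, and the summit is base 35.
ears-2: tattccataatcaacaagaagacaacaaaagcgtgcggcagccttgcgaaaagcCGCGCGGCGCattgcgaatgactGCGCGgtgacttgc
The capitals cover 15 of the 91 bases, all of them between the summit and ears-2.

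The next synthetases missed the reproducible list. The weakest thresholded peak had a pooled signal of 78.9, and 21 synthetase genes had a pooled summit in their window below that value. Just outside stood aars-1, the mitochondrial alanyl enzyme (chromosome II, 11460205 to 11464497), with a pooled signal of 77.0 at rank 1513, 73 bp upstream. Its own-list signals were 27.4 in replicate 1 (rank 2549) and 50.2 in replicate 2 (rank 1312), with summits 8 bp apart. The cytosolic asparaginyl gene nars-1 (chromosome I, 7088030 to 7090062) followed with 66.3 at rank 2040, 282 bp upstream. Replicate 1 gave nars-1 a signal of 17.3 (rank 8249) and replicate 2 gave 49.4 (rank 1354). For both genes the rank was within the strongest 1447 peaks in replicate 2 and outside it in replicate 1.

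The cytosolic methionyl gene mars-1 (chromosome IV, 11631941 to 11635487) had a pair of pooled summits, with signals of 58.3 at rank 2645, 280 bp upstream, and 42.2 at rank 5126, 485 bp upstream. Here replicate 1 was the higher in rank, with a signal of 37.6 (rank 1233) against 25.0 (rank 5346) in replicate 2. The summits were at different sites, 441 bp upstream in replicate 1 and 283 bp upstream in replicate 2. The cytosolic arginyl gene rars-1 (chromosome III, 4914088 to 4917177) had a signal of 52.7 at rank 3221, 982 bp upstream. That summit was 151 bp upstream of rpb-8, which encodes a subunit shared by the nuclear RNA polymerases, and replicate 1 listed no summit in the rars-1 window. The mitochondrial valyl gene vars-1 (chromosome V, 8031411 to 8035025) had 51.3 at rank 3402, 35 bp upstream, with own-list signals of 17.0 in replicate 1 (rank 8708) and 31.9 in replicate 2 (rank 3180).

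**Figure D1:**
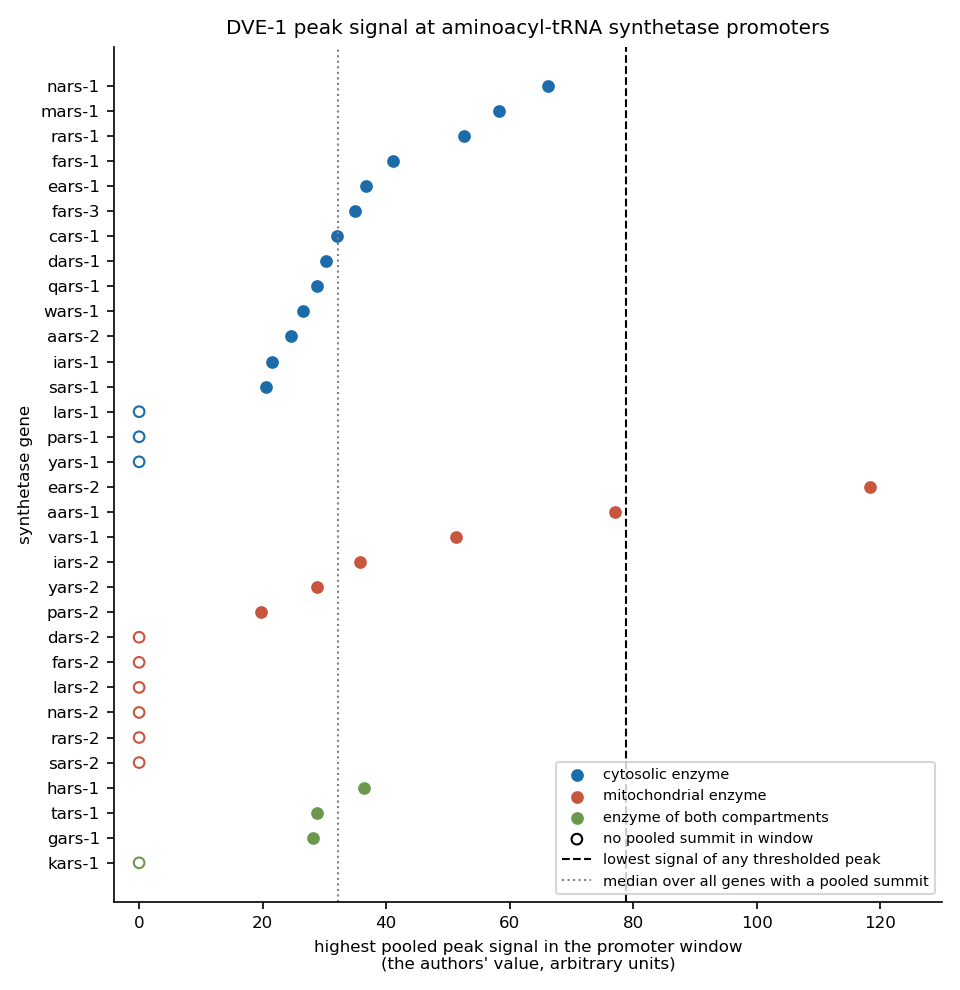
Highest pooled peak signal (horizontal axis, the authors' value in arbitrary units) in the promoter window of each of the 32 synthetase genes, by compartment; open circles placed at 0 are genes with no pooled summit. The dashed line at 78.9 is the weakest thresholded peak and the dotted line at 32.1 the median over all genes with a pooled summit. ears-2 is the single gene right of the dashed line, and aars-1 at 77.0 stands just left of it.

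The DNA at 5 of these sites is shown to set it beside the ears-2 gap. Each stretch reaches up to 50 bp to either side of the pooled summit and stops at the gene, is written 5′ to 3′ on the strand of the synthetase gene, and has the same capitals.
aars-1, chrII:11464520-11464620, minus strand: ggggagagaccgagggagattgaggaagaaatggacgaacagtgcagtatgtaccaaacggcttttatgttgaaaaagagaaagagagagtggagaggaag
mars-1, chrIV:11635717-11635817, minus strand: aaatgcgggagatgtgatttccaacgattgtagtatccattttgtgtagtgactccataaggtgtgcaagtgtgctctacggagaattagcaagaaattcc
mars-1, second summit, chrIV:11635922-11636022, minus strand: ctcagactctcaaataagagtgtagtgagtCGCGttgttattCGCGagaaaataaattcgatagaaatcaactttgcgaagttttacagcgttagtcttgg
rars-1, chrIII:4918109-4918209, minus strand: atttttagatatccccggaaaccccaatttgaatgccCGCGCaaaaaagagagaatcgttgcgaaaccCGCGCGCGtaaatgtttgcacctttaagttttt
vars-1, chrV:8031326-8031410, plus strand: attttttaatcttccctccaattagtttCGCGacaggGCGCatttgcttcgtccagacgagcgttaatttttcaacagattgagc
The rars-1 stretch has 13 bases in capitals, and the vars-1 stretch and the second mars-1 stretch have 8 each. The stretches at aars-1 and at the stronger mars-1 summit have 0, although CGCG and GCGC occur within 100 bp of the aars-1 summit.

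The letters of the capitals were chosen after these sequences were seen, and their share is a description. Within 100 bp on either side of the highest pooled summit, CGCG on either strand was present at 8 of 22 synthetase genes (36.4%), against 44.5% of all nuclear thresholded summits and 32.7% of the highest pooled summits of all genes. In stretches of the same length before the 5′ ends of all genes the share was 20%. GCGC, which overlaps CGCG in runs, was also present at 8 of 22 (36.4%), against 46.5%, 34.9% and 20.4% in the same 3 sets. The nars-1 site, with a pooled signal of 66.3, was left out of the stretches shown. Neither CGCG nor GCGC lay within 100 bp of its summit, nor of the stronger mars-1 summit. The stretches shown are therefore not a full set of the strongest sites. TAATTA, a core that many homeodomains prefer, was in 1 of the 22 windows (4.55%), that of gars-1, against 2.78%, 8.09% and 11.9%. TTTCGC was in 6 of the 22 windows (27.3%), against 16.6%, 16.6% and 13%, and CTCTCT in 5 (22.7%), against 30.9%, 18.2% and 13.1%. TTAGGC, the unit of the worm telomere repeat, was in 4.55% of the synthetase windows, against 24.1%, 6.32% and 4.17%. GGTTCGA, letters found in tRNA genes, was in 0 of the 22 synthetase windows, against 8.96%, 2.06% and 0.846%. For TTAGGC and GGTTCGA the synthetase windows were thus near the summits and 5′ ends of other genes. Median A+T content was 61.9% at the synthetase summits, 54.2% at thresholded summits, 62.7% at the highest pooled summits of all genes and 67.2% before all 5′ ends. The shares of CGCG and GCGC and the A+T content at synthetase summits thus lay nearer to those at the pooled summits of all genes than to those at thresholded summits. The sets are not independent. The synthetase windows are among the pooled summits of all genes, and all but that of ears-2 missed the thresholded list.

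Below the threshold, DVE-1 summits were frequent at synthetase genes. A pooled summit was present at 22 of the 32 (68.8%), against 41.5% of all genes. When each pooled summit went to its nearest gene within 2000 bp, 20 of the 32 had one, against 56.4% of all genes. The difference from all genes was then smaller. Counting from the strongest pooled peak down, 6 synthetases (18.8%) had a summit among the strongest 5000 peaks, against 13.2% of all genes. Among the strongest 10000 it was 12 (37.5%) against 21.1%, and among the strongest 20000 it was 19 (59.4%) against 32%. The share was thus near that of all genes at the top of the list and above it further down. The signals themselves were like those of other genes. The median of the highest signals was 33.5 over the 22 synthetases and 32.1 over all genes with a pooled summit, and 11 of the 22 lay above the latter value. The pooled list is meant to include background.

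**Figure D2:**
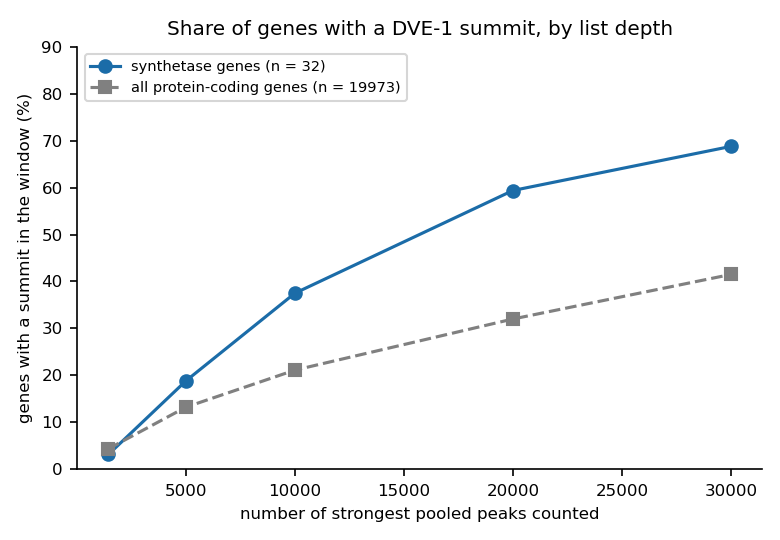
Share of genes with a DVE-1 summit in the promoter window (vertical axis, %) when the 1447 thresholded peaks or the strongest 5000, 10000, 20000 and 30000 pooled peaks are counted (horizontal axis), for synthetase genes (circles) and all protein-coding genes (squares). The synthetases stand at 3.12% against 4.33% in the thresholded list and at 68.8% against 41.5% in the whole pooled list.

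The other 16 synthetases with a pooled summit had highest signals from 41.1 down to 19.7. They were led by fars-1, the alpha subunit of the cytosolic phenylalanyl enzyme (41.1), ears-1, the cytosolic glutamyl enzyme (36.8), and hars-1, the histidyl enzyme of both compartments (36.4). The lowest were iars-1 (21.5), sars-1 (20.6) and pars-2 (19.7), the cytosolic isoleucyl and seryl and the mitochondrial prolyl enzymes. No pooled summit stood at 10 genes. They were the cytosolic lars-1, pars-1 and yars-1 (leucyl, prolyl and tyrosyl), the mitochondrial dars-2, fars-2, lars-2, nars-2, rars-2 and sars-2 (aspartyl, phenylalanyl, leucyl, asparaginyl, arginyl and seryl), and kars-1, the lysyl enzyme of both compartments.

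Fewer synthetases had a summit when each replicate was taken alone. Replicate 1 had a summit in the window of 12 synthetases (37.5%), against 22.5% of all genes, and replicate 2 of 13 (40.6%), against 26.8%. Median highest signals were 22.1 over those 12 and 22.2 over all genes in replicate 1, and 25.8 over those 13 and 24.6 over all genes in replicate 2. Both replicates had a summit at 9 synthetases (28.1%), against 16.2% of all genes. A summit in replicate 1 alone was found at dars-2, ears-1 and yars-2, and in replicate 2 alone at cars-1, iars-2, rars-1 and sars-2. Neither replicate's own list had a summit at the remaining 16.

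A summit in both lists was not always at the same place. At 5 of the 9 genes the replicates' nearest summits were at most 100 bp apart (ears-2, aars-1, fars-1, nars-1 and vars-1, 7 to 47 bp). At the other 4 genes they were farther apart, by 147 bp at fars-3, 158 bp at mars-1, 533 bp at hars-1 and 623 bp at iars-1. For hars-1 and iars-1 the summits in replicate 1 were 693 and 668 bp upstream, while those in replicate 2 were 160 and 45 bp upstream. How often the replicates' summits lie this close over all genes was not counted.

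**Figure D3:**
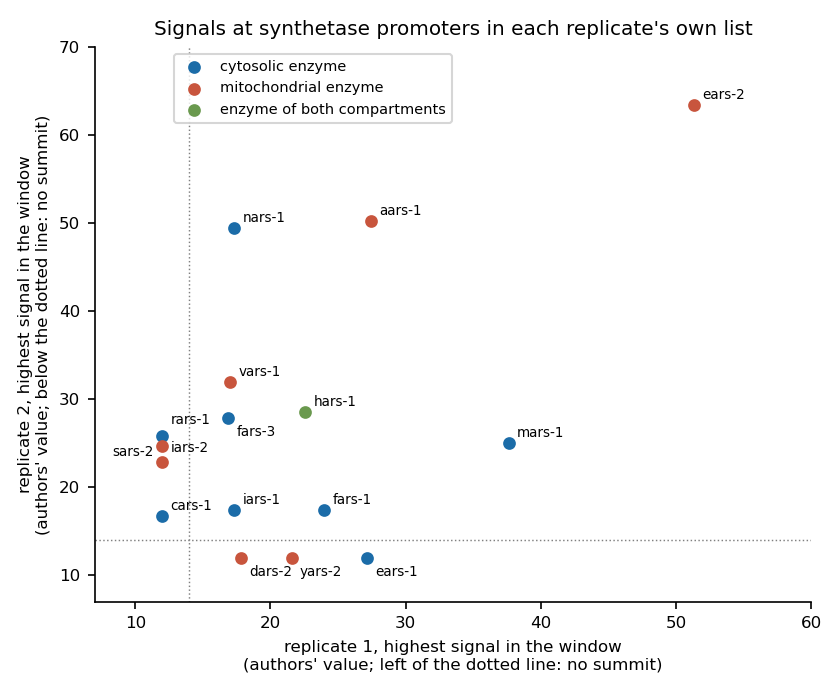
Highest own-list peak signal in the window for the 16 synthetase genes with a summit in either replicate (replicate 1 on the horizontal and replicate 2 on the vertical axis, each in the authors' units of that list). Points beyond the dotted lines have no summit in that replicate. ears-2 is high on both axes, nars-1 and aars-1 are higher in rank in replicate 2, and mars-1 in replicate 1.

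Cytosolic and mitochondrial enzymes were compared next, because DVE-1 is known for a mitochondrial stress response. No cytosolic gene (0 of 16) and 1 mitochondrial gene (1 of 12, ears-2) had a thresholded summit, against 4.33% of all genes, a share at which classes of this size would hold less than 1 such gene each. The strongest peaks of either replicate alone gave 1 cytosolic gene, and giving each summit to its nearest gene left 0 mitochondrial genes. A pooled summit was present at 13 of 16 cytosolic genes (81.2%), 6 of 12 mitochondrial genes (50%) and 3 of 4 genes for both compartments, against 41.5% of all genes. The highest pooled signals of cytosolic genes lay between 20.6 and 66.3 (median 32.1), those of mitochondrial genes between 19.7 and 118 (median 43.5), and those of the genes for both between 28.2 and 36.4. The ranges overlapped, and the highest values, at ears-2 and aars-1, were mitochondrial.

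Among the genes taken by name, 11 amino acids had a gene for each place. The cytosolic gene had the higher pooled signal for 5 of these 11 and the mitochondrial gene for 5. For aspartate, phenylalanine, asparagine, arginine and serine the cytosolic gene was higher, and in each of these the mitochondrial partner had no pooled summit. For asparagine the values were 66.3 at nars-1 and none at nars-2. For alanine, glutamate, isoleucine, proline and tyrosine the mitochondrial gene was higher, as with 36.8 at the cytosolic ears-1 against 118 at ears-2, and 24.6 at the cytosolic aars-2 against 77.0 at aars-1. For leucine neither had a pooled summit. For proline and tyrosine the cytosolic partner had no pooled summit. Among these 11, both genes had a pooled summit for alanine, glutamate and isoleucine alone. There the mitochondrial signal was the higher, with 35.8 at iars-2 against 21.5 at iars-1. The even count of 5 and 5 thus mixes presence of a summit, more often cytosolic alone, with signal, higher at the mitochondrial gene in these few pairs.

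The synthetases also fall into a pair of unrelated structural classes, which share no fold of the catalytic domain. A pooled summit stood at 11 of 15 genes of class I (73.3%) and at 11 of 17 of class II (64.7%), against 41.5% of all genes. In mammals a set of synthetases sits together in a multi-enzyme complex. Worm genes for the same amino acids and the cytosol had a pooled summit at 6 of 9 genes (66.7%), against 10 of 11 among the remaining cytosolic enzymes and enzymes of both compartments (90.9%) and 41.5% of all genes.

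Some synthetase genes do not carry a name of this form. The cytosolic valyl enzyme is encoded by glp-4 (chromosome I), which had a pooled signal of 39.4 at rank 5995, 929 bp upstream. Y105E8A.20, which RefSeq names mars-2 and Ensembl does not, had 39.3 at rank 6013, 49 bp upstream. The gene prx-10, whose RefSeq product is a mitochondrial tryptophanyl enzyme, had 34.4 at rank 8243, 53 bp downstream. None of these 3 genes had a thresholded summit. They were not among the pairs compared above. The gene taken by name for the same amino acid had 51.3 at vars-1, 58.3 at mars-1 and 26.5 at wars-1. The mitochondrial vars-1 and prx-10 were thus higher than their cytosolic partners, and the cytosolic mars-1 was higher than Y105E8A.20.

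Where synthetase genes had a pooled summit, it was often close to the gene. The highest summit was upstream of the 5′ end at 17 of 22 genes. The window reaches 1000 bp upstream and only 200 bp downstream, so evenly placed summits would mostly be upstream. The upstream share was not counted over all genes. The highest summit was within 300 bp of the 5′ end, on either side, at 17 of 22 (77.3%), against 52.8% of all genes with a pooled summit. The median position was 149 bp upstream, against 280 bp upstream over all genes. All 6 mitochondrial genes had theirs upstream, from 35 to 276 bp. Of the 13 cytosolic genes, 8 had theirs upstream, up to 982 bp, and 5 (fars-3, cars-1, dars-1, wars-1 and sars-1) inside the transcribed region, up to 196 bp downstream. The cars-1, dars-1 and wars-1 summits lay in coding exons of these genes. Among the upstream ones, those of ears-1 and the mitochondrial iars-2 lay in coding exons of the neighbours ZC434.3 and C25A1.20. That of fars-1 lay in an exon of T08B2.15.

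**Figure D4:**
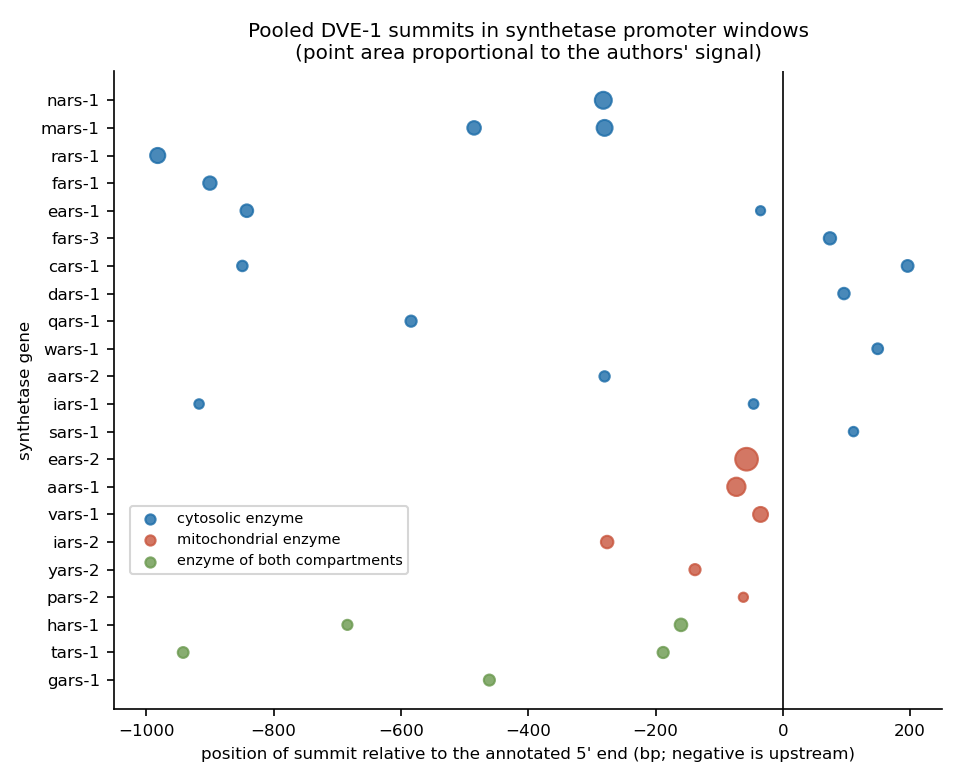
Position of all 28 pooled summits in the windows of 22 synthetase genes relative to the annotated 5′ end (horizontal axis, bp, negative is upstream), by compartment, with point area in proportion to the authors' signal. The highest summits of the 6 mitochondrial genes lie between 35 and 276 bp upstream, while those of the 13 cytosolic genes run from 982 bp upstream to 196 bp downstream.

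Neighbouring genes shared many of these summits. The highest summit of 14 of the 22 genes also lay in the window of another gene (63.6%), against 28.8% of all genes with a pooled summit, and that gene was nearer in 5 cases (ears-2, fars-1, iars-2, qars-1 and rars-1). The fars-1 summit was 900 bp upstream of fars-1 and 142 bp upstream of rbm-5, an RNA-binding protein gene. That of qars-1, the cytosolic glutaminyl gene, was 584 bp upstream of qars-1 and 268 bp upstream of Y41E3.7. No pooled summit in a synthetase window lay within 200 bp of a tRNA or snoRNA gene. The same count was not made for the pooled summits of all genes, so this absence may be usual.

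The direction of the upstream neighbour was set beside the counts. In 6 synthetases (aars-1, dars-1, ears-1, ears-2, hars-1 and sars-1) the next gene upstream lay within 500 bp on the opposite strand, so that both genes could share a promoter region. All 6 had a pooled summit and 1 a thresholded summit, against 57.3% and 11.2% of the 1816 genes so arranged in the whole genome. In 10 synthetases the neighbour within 500 bp was on the same strand, as in the operons that are common in C. elegans, and 5 of them (50%) had a pooled summit, against 39.6% of 3533 such genes. Of the remaining 16 synthetases, 11 had a pooled summit (68.8%), against 40% of 14619 such genes. In operons the annotated 5′ end need not be a start of transcription. When a same-strand run was followed to its first gene, gars-1, the glycyl gene of both compartments, was 3 genes from prp-19, a splicing factor gene. A thresholded summit with a signal of 134 lay 636 bp upstream of prp-19 (chromosome III, 5169933 to 5172045), and whether these genes share a transcript was not tested.

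With ears-2 included, the distance from synthetases to reproducible peaks was near that of all genes. The nearest thresholded summit was a median of 32904.5 bp from the 5′ end over the 32 genes (57 to 149116 bp), against 28385 bp over all genes. It lay within 2000 bp at 3 of 32 (9.38%), against 7.43%, within 5000 bp at the same 9.38%, against 14.1%, and within 10000 bp at 18.8%, against 23.9%. At iars-2, the mitochondrial isoleucyl gene (chromosome I, 10180236 to 10184599), a summit with a signal of 92.9 was 1801 bp upstream, and it lay nearer to nola-3 and C25A1.16. At fars-1 (chromosome I, 6211981 to 6214685) a stronger summit, with a signal of 205 at rank 139, was inside the gene record, 1837 bp downstream of the 5′ end. That summit was within 200 bp of the snoRNA gene T08B2.13 and fell in the window of mrpl-23, a mitochondrial ribosomal protein gene.

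Nuclear tRNA genes, whose products are partners of the cytosolic enzymes and those of both compartments, were counted by distance, in place of a promoter window. The tRNA genes of the mitochondrial genome, which serve the mitochondrial enzymes, were not counted. A thresholded summit lay within 200 bp of the gene record, or inside it, at 2 of 32 synthetases (6.25%, ears-2 and fars-1), against 4.15% of all protein-coding genes. By the same distance it was 174 of 612 nuclear tRNA genes (28.4%), and each of the 20 amino acids had at least 1 such tRNA gene. For glutamate, 13 of 41 tRNA genes had such a summit. The cytosolic ears-1 had no thresholded summit in its window and a pooled signal of 36.8. Such a summit lay at 18 of 46 tRNA genes for lysine, while kars-1 had no pooled summit. For leucine it lay at 11 of 39, while the cytosolic lars-1 had no pooled summit. Copies of a tRNA gene can be almost identical, and the placing of a peak at a single copy is uncertain.

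Other genes of the same pathway were counted in the same way. Among initiation and elongation factors, which bring charged tRNAs to the ribosome and start translation, 13 of 39 genes had a thresholded summit (33.3%), against 1 of 32 synthetases. They were led by iff-2, an initiation factor 5A gene (337), eef-1G, an elongation factor 1 subunit gene (179.6), and eif-3.B, an initiation factor 3 subunit gene (162). Genes for tRNA processing and modification had 1 of 21 (4.76%), which was mtcu-2, a mitochondrial tRNA modification gene (96.1). The list for the integrated stress response, which uncharged tRNA can start through the kinase GCN2, had 3 of 9 (33.3%), against 4.33% of all genes. They were cebp-1 (168), atfs-1 (82.3) and atf-4 (82.3), and whether these 3 genes act downstream of GCN2 was not tested. Mitochondrial ribosomal protein genes had 8 of 70 (11.4%), led by mrpl-23 (205, at the snoRNA gene named above), mrps-7 (157) and mrpl-15 (138). In the pooled list the shares were closer together, at 68.8% for synthetases, 84.6% for the factors, 61.9% for tRNA processing, 77.8% for the stress response and 64.3% for the mitochondrial ribosome. The synthetase list therefore stood with tRNA processing, near the 4.33% of all genes, in the thresholded list. In the pooled list it stood above all genes by the promoter window, and less so with summits given to their nearest gene. No difference between lists was tested.

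**Figure D5:**
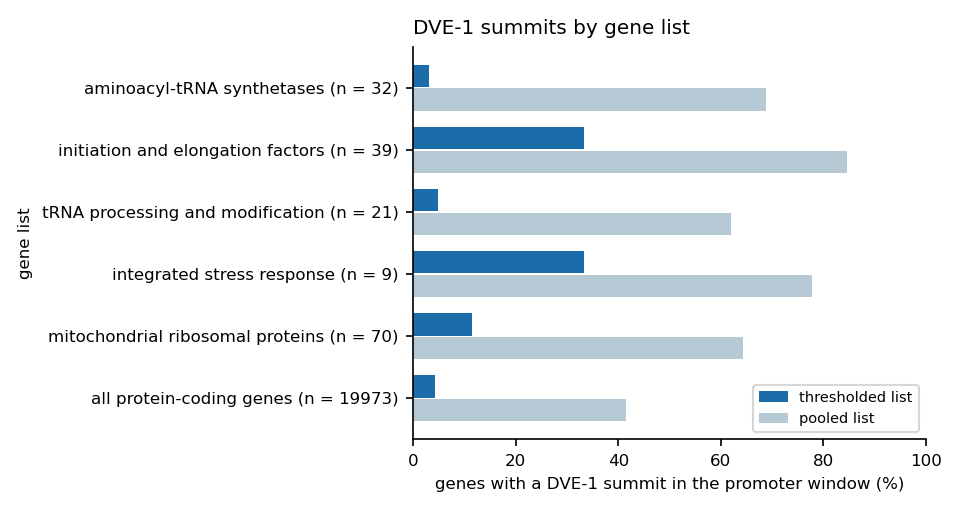
Share of genes with a DVE-1 summit in the promoter window (horizontal axis, %) in the thresholded list (dark bars) and the pooled list (light bars) for synthetases, 4 other gene lists and all protein-coding genes. In the thresholded list synthetases stand at 3.12% and initiation and elongation factors at 33.3%, against 4.33% of all genes.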

How the data were processed

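DVE-1 ChIP-seq was measured in 2 biological replicates of 1 group, per the labels. Per the text descriptions deposited with the files, the authors made peak lists per replicate, on both replicates together and thresholded by IDR, against 1 control alignment. Which aligner, caller and IDR threshold they used is not given in the sources used here. Lists deposited by the authors give each peak a signal, their enrichment value of unstated scale, which was ranked and compared within a list. Lists on the older ce10 build were not used. Summits were joined to Ensembl release 115 gene records of the matching build with Python 3.11.15, numpy 2.4.6 and pandas 2.3.3, and the join was tested on simulated data. Figures used matplotlib 3.10.9. Sequences came from the RefSeq WBcel235 genome. No test was run, since there is 1 group, and shares stand beside those over all genes where the same count was made there. Depth per sample is unknown. The members, gene lists and motifs were chosen with earlier results of these data known. Of the listed pathway symbols, 6 of 45 factors, 5 of 26 tRNA processing genes and 3 of 12 stress response genes matched no annotated gene. Named are the member with a thresholded summit, the 5 strongest others in full, the rest by range or name, and up to 3 bound genes per pathway list. Alternatives covered the window, the 5′ end, the assignment, the peaks and the replicates.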

Additional observations from a re-analysis of the deposited data

How the results depend on the processing

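The count of 1 synthetase with a thresholded summit was the same with the window of 500 bp upstream to 100 bp downstream, with the 5′ ends of all transcripts, with peaks above the median signal, with peaks overlapped in both replicates and without summits near tRNA or snoRNA genes. Under each of these the gene was ears-2. With 2000 bp upstream to 500 bp downstream it was 2 genes (ears-2 and iars-2), 2 of them mitochondrial, and their median signal was 106. When each summit was given to its nearest gene within 2000 bp, it was 0 synthetases and 0 mitochondrial ones, because uncp-18 took the ears-2 summit. Taking the strongest 1447 peaks of a single replicate gave 2 to 3 synthetases. Without replicate 1 these were aars-1, ears-2 and nars-1 (1 cytosolic and 2 mitochondrial), and without replicate 2 they were ears-2 and mars-1 (1 cytosolic and 1 mitochondrial). Following same-strand runs to their first gene, an alternative chosen after seeing the data, gave 2 (ears-2 and gars-1) in the thresholded list and 25 in the pooled list. The share of all genes was 2.08% for peaks above the median signal and 3.29% to 6.19% under the others. Synthetases with a pooled summit numbered 16 of 32 with the narrow window, against 28.8% of all genes. They numbered 24 with the wide window (against 57.3%), 22 with all 5′ ends (against 44.6%) and 20 with the nearest gene (against 56.4%). Cytosolic genes with a thresholded summit numbered 0 under the other window, 5′ end, assignment and peak alternatives, and placing genes by the number in their name left 0 cytosolic and 1 mitochondrial. No median signal was set for single replicates, whose lists have their own scale. No paired analysis was possible because there is 1 group. Depth is unknown, so a gene without a summit may fall below what these libraries can show.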
